A study of Homo sapiens with 32 samples.

Results

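The genes described here are the insulin-like growth factor (IGF) binding proteins IGFBP2, IGFBP3, IGFBP4, IGFBP5, IGFBP6 and IGFBP7 and the IGF1 receptor gene IGF1R. They were chosen by name, by matching the Ensembl identifiers of the count table to GENCODE 44 symbols, and are 7 of the 17788 genes in the table. Their transcript abundance was measured by RNA-seq in 32 libraries of MCF10A, an immortalized, non-tumorigenic human mammary epithelial cell line. The study used these cells to ask how far the response to TGFβ1, a cytokine that induces epithelial-mesenchymal transition (EMT), depends on the AP-1 subunit JUNB. WT clones 2 and 27 carried wild-type JUNB. Clones 1 and 65, titled JUNB KO in the labels and called mut here, the study's term, were edited with CRISPR/Cas9. Each clone was derived from a single cell, and per the study the mut clones still made a smaller JUNB polypeptide at a low level. Cells of each clone received 5 ng/ml TGFβ1 for 6, 24 or 72 h, or solvent (BSA in PBS, labelled time 0 and, per the study, given for 72 h). All groups were kept in medium with horse serum, insulin, EGF, hydrocortisone and cholera toxin. Each of the 8 groups of genotype and treatment held 4 libraries, from 2 clones in 2 replications. A series is the set of libraries of 1 clone and 1 replication number, so 27-2 is clone 27, replication 2.

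IGF1 and IGF2 are secreted growth factors that bind IGF1R, a receptor tyrosine kinase which signals through insulin receptor substrates to PI3K and AKT and through adaptors to the MAPK cascade. IGF binding proteins are secreted as well and hold the ligands in the extracellular fluid, which can keep them from the receptor or extend their life, and proteases release the ligand by cutting the binding protein. IGFBP7 is a more distant relative that binds IGFs weakly. Insulin at high concentration, as in culture medium, can also bind IGF1R.

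Library totals ranged from 39702412 to 54651906 counts, and abundance is given as CPM, the count divided by the library total and multiplied by 1000000. A floor of 3 counts corresponds to 0.0549 to 0.0756 CPM and covers counting error only. The epithelial label was matched by KRT5 and other basal keratin genes, and of 8 listed fibroblast markers 7 were in the table. COL1A1 had 3.16 to 73.4 CPM and DCN 4.34 to 33.5 CPM over the libraries, while the highest values of PDGFRA, PDGFRB, COL1A2, THY1 and COL3A1 were 1.51, 0.843, 0.364, 0.0932 and 0.0804 CPM. Series 27-2 stood apart from the other 28 libraries on principal component 3, with scores of -53.6 to -35.1 against -14.6 or higher. Where a call of the 7 genes changed without this series, the result is given with and without it. The JUNB transcript does not check the labels, since it had 89.7 to 117 CPM in WT solvent and 69.2 to 172 CPM in mut solvent. In bulk RNA, fewer cells of a type and less RNA per cell cannot be told apart.

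All 7 genes lie on GRCh38. IGFBP2 (ENSG00000115457, chr2:216632828-216664436, plus strand) and IGFBP5 (ENSG00000115461, chr2:216672105-216695549, minus strand) face each other with a gap of 7668 bp. IGF1R (ENSG00000140443) spans chr15:98648539-98964530 on the plus strand. IGFBP3 (ENSG00000146674) is at chr7:45912245-45921874, IGFBP4 (ENSG00000141753) at chr17:40443450-40457725, IGFBP6 (ENSG00000167779) at chr12:53097436-53102345 and IGFBP7 (ENSG00000163453) at chr4:57030773-57110385. IGFBP7 shares 260 of its 1930 exonic bases with POLR2B and 94 with IGFBP7-AS1, both on the opposite strand, and the library kit kept no strand, so reads in these stretches cannot be assigned to 1 gene.

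The 2 genes whose response to TGFβ1 differed between the genotypes were IGFBP2 and IGF1R. For each, the promoter window at the GENCODE gene start is shown, because AP-1 and the SMAD proteins of the TGFβ pathway are DNA-binding factors. The windows reach from 250 bases before to 50 bases after the RefSeq start (GRCh38.p14). Capitals mark CAGAC or its reverse complement, letters of the SMAD-binding element.
IGFBP2, chr2:216632578-216632877, plus strand: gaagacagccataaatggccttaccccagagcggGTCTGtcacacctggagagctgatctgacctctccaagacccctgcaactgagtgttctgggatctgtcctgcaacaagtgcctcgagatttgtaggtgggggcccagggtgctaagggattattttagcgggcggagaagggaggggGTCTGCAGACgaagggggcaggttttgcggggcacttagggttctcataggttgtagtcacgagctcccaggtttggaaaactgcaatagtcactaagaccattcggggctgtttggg
IGF1R, chr15:98648289-98648588, plus strand: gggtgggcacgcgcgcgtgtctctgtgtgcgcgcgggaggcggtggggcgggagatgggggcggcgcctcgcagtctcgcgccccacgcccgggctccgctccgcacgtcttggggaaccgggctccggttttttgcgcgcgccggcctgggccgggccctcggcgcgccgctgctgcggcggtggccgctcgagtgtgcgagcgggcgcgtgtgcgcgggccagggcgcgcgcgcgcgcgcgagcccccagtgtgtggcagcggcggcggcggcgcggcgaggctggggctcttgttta
RefSeq windows were matched for 6 of the 7 genes, 8 windows in all, and IGFBP7 had none. The AP-1 letters TGANTCA, searched on both strands, were in 0 of these 8 windows, and in 7.71% of the 35116 windows of all genes. CAGAC was found 3 times in the IGFBP2 window shown and 1 time in another IGFBP2 window, with 0 matches in the other genes' windows, whereas 45.3% of all windows held it. The IGF1R window has a GC content of 79.7%, and the IGFBP2 window shown 55.3%. IGFBP2 windows not shown, at the RefSeq starts 216633420 and 216659567, have 70% and 56.7%. The window at 216633420 holds 0 CAGAC matches. A match of letters is a description of the sequence, and its absence from such a window says nothing on the factor.

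All 7 genes passed the filter on low counts and were tested among 14865 genes. A gene is called when its Benjamini-Hochberg adjusted p in the two-sided limma-voom test is under 0.05, and all adjusted p-values that follow come from it where no tool is given. In WT cells, TGFβ1 changed 1 of the 7 at 6 h (17% of all genes were called), 4 at 24 h (52.1%) and 4 at 72 h (52.2%). In mut cells it changed 0 after 6 h (7%), 3 after 24 h (23.8%) and 5 after 72 h (24.1%). For the 0 at 6 h, 2 genes had an unadjusted p under 0.05, the quasi-likelihood test of edgeR called 1 and DESeq2 called 2. Taking the series as a block, the mut counts for 6, 24 and 72 h were 2, 6 and 7, and the WT counts were 3, 5 and 5. The block also raised the calls in the wider pathway list described below, in mut cells at 24 h from 10 to 16 of 56 genes. The share of all genes called with the block is not reported here, so the block counts cannot be set against it. Between mut and WT, 2 differed in solvent (12.7%), 2 after 6 h (21.4%), 3 after 24 h (36.9%) and 2 after 72 h (39.2%). The change with TGFβ1 itself differed between the genotypes (interaction) for 1 gene after 6 h (0.074%), 2 after 24 h (9.65%) and 2 after 72 h (12.3%). The WT counts at 24 and 72 h are close to the share of all genes, and no test of the list was made. The median log2 fold change over the 7 genes at 72 h was 0.28 in WT and 0.32 in mut cells, against -0.19 and -0.09 over all genes tested.

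**Figure D1:**
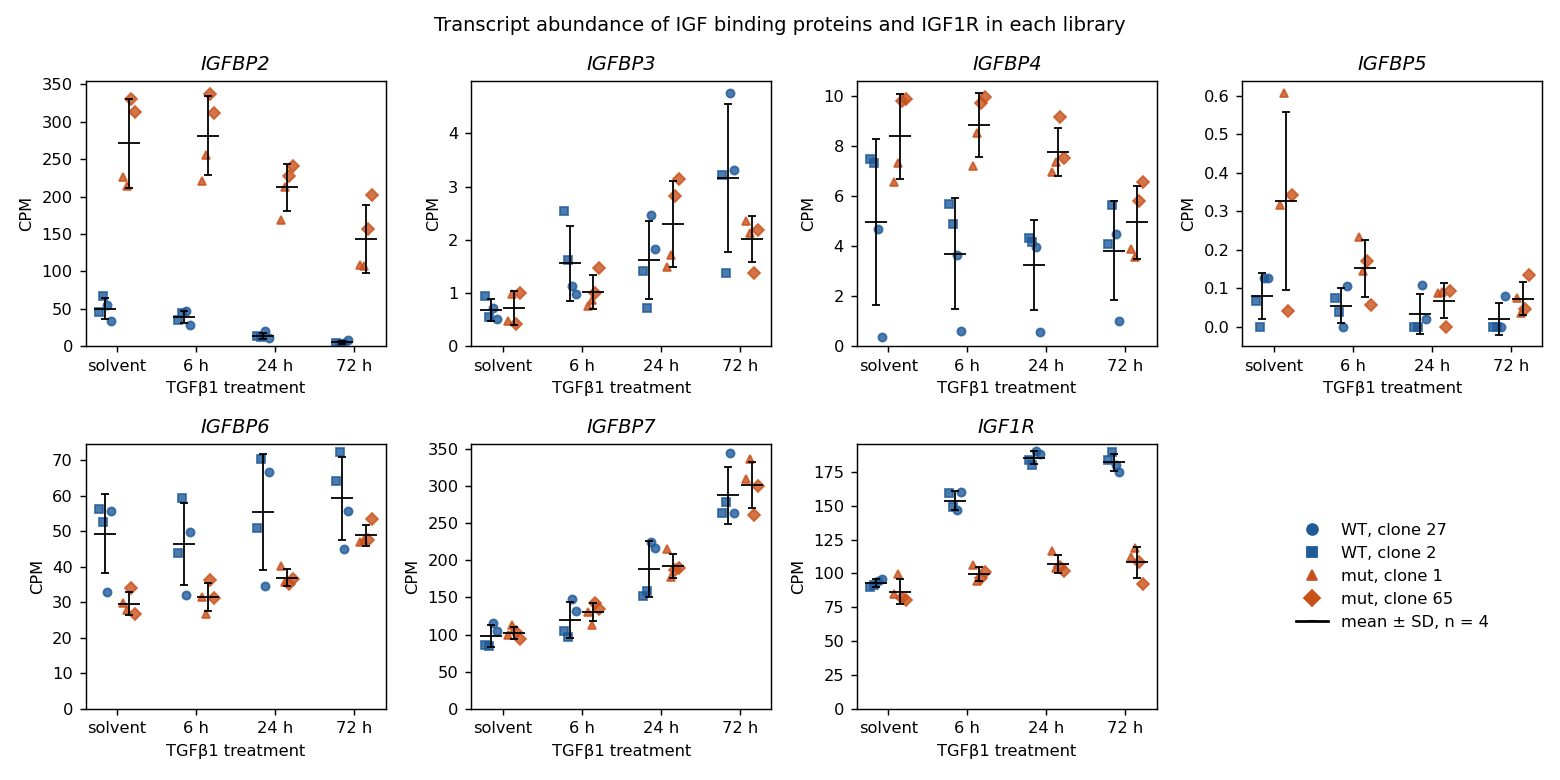
Abundance (CPM, linear axis) of each gene in each library by treatment, with WT in blue and mut in orange, a symbol for each clone, and black bars for the mean ± SD of 4 libraries. IGFBP2 is above 100 CPM in every mut library and below 70 CPM in every WT library, IGF1R rises in WT to 175 CPM or more at 72 h, and IGFBP7 rises in both genotypes.

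IGF1R, the receptor, rose strongly with TGFβ1 in WT cells and rose less in mut cells. In WT solvent it had 90.1, 91.1, 94.7 and 95.9 CPM in series 2-1, 2-2, 27-1 and 27-2. After 6 h these libraries had 159, 149, 147 and 160 CPM, after 24 h 184, 180, 190 and 188 CPM, and after 72 h 184, 190, 180 and 175 CPM. Every treated WT library was above every solvent library, and most of the rise was present at 6 h. On the log2 scale the 6 h change was 0.73 ± 0.07 (SE, adjusted p = 3.03e-08), the 24 h change 1.00 ± 0.07 (adjusted p = 6.45e-12) and the 72 h change 0.97 ± 0.07 (adjusted p = 7.96e-12), the last a 1.96-fold rise with a 95% interval of 1.78 to 2.15.

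Mut solvent libraries had 84.8, 100, 81.6 and 80.2 CPM of IGF1R in series 1-1, 1-2, 65-1 and 65-2. After 72 h they had 112, 119, 109 and 92.6 CPM. The ranges overlapped, since 92.6 CPM in treated 65-2 lies below 100 CPM in solvent 1-2, but within each series the treated library was the higher. The fold change in mut cells was 1.25 at 72 h (log2 0.32 ± 0.07, adjusted p = 0.000693) and 1.24 at 24 h (log2 0.31 ± 0.07, adjusted p = 0.00146). At 6 h it was 0.21 ± 0.07 on the log2 scale (adjusted p = 0.0595), and with the series as a block 0.21 (adjusted p = 0.0241). It was called in 8 of 19 alternatives, edgeR (adjusted p = 0.0408) and DESeq2 (adjusted p = 0.0155) among them. Without the library mut solvent 1-2 the value at 6 h was 0.28 (adjusted p = 0.0179), and without mut 6 h 1-2 it was 0.23 (adjusted p = 0.0349).

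In solvent, IGF1R did not pass the test between mut and WT, with a log2 difference of -0.11 and a 95% interval of -0.25 to 0.03 (adjusted p = 0.325). With TGFβ1 it was lower in mut cells, 1.55-fold after 6 h (adjusted p = 5.04e-08), 1.74-fold after 24 h (adjusted p = 8.08e-10) and 1.69-fold after 72 h (adjusted p = 1.13e-09), with no overlap between the libraries at any of these times. The interaction was -0.69 at 24 h (95% interval -0.88 to -0.50, adjusted p = 6.58e-05) and -0.65 at 72 h (-0.84 to -0.46, adjusted p = 7.83e-05). All 4 mut series changed less than all 4 WT series at each time. At 6 h the interaction was -0.52 (adjusted p = 0.0259), 1 of only 11 genes called there, and this call was lost in 11 of 27 alternatives. Without series 27-2 as a whole the 6 h interaction was -0.515 (adjusted p = 0.0787). Without mut solvent 1-2 it was -0.45 (adjusted p = 0.101), and without WT 6 h 2-1, WT solvent 2-1, WT solvent 2-2, mut 6 h 1-2, mut 6 h 65-1 or mut 6 h 65-2, singly, adjusted p lay between 0.0571 and 0.0793.

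**Figure D2:**
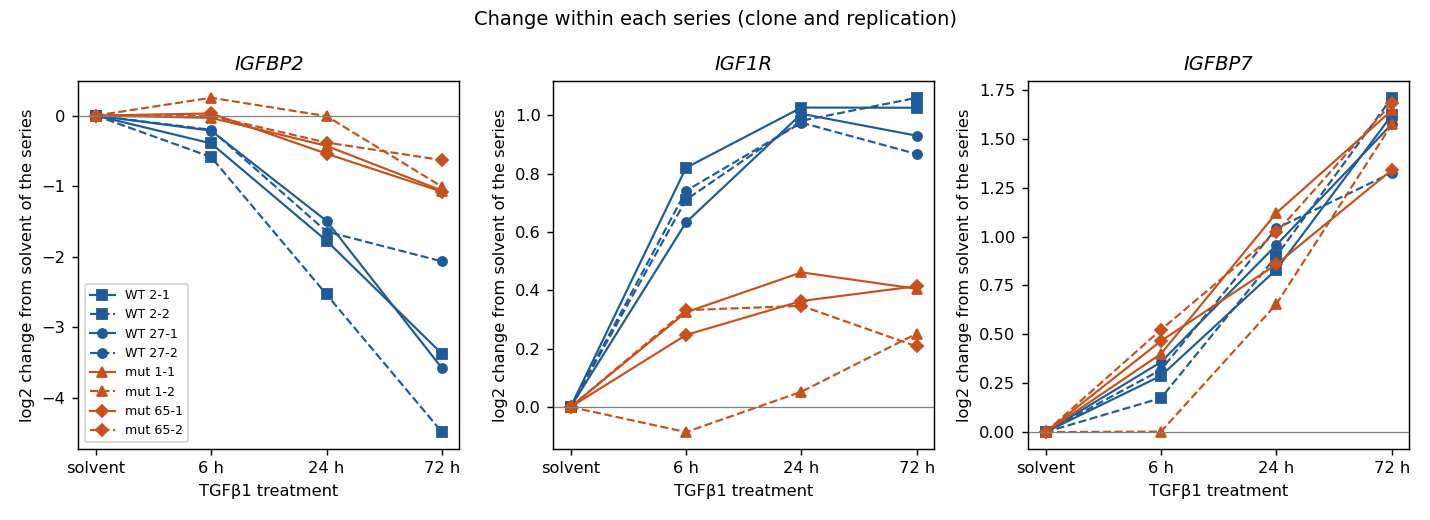
Log2 change of IGFBP2, IGF1R and IGFBP7 from the solvent library of the same series (vertical axis) by treatment (horizontal axis), with 1 line per series, WT in blue and mut in orange. The lines of the genotypes separate for IGFBP2 and IGF1R, where the WT changes at 72 h run from -4.48 to -2.06 and from 0.87 to 1.06, and they run together for IGFBP7.

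IGFBP2, which binds both IGFs and is also known to bind integrins, was far higher in mut than in WT cells and was lowered by TGFβ1 in both. WT solvent libraries had 45.7, 66.6, 54.9 and 33.2 CPM in series 2-1, 2-2, 27-1 and 27-2. The values were 34.8, 44.3, 47.4 and 28.9 CPM at 6 h, 13.4, 11.5, 19.5 and 10.6 CPM at 24 h, and 4.41, 2.97, 4.59 and 7.93 CPM at 72 h. From 24 h on every treated WT library was below every solvent library, and the 6 h and solvent libraries overlapped. At 72 h IGFBP2 in WT cells was 10.2-fold lower (95% interval 5.91 to 17.7, log2 -3.36 ± 0.39, adjusted p = 4.52e-08). At 24 h it was 3.58-fold lower (log2 -1.84 ± 0.28, adjusted p = 3.45e-06), and at 6 h the log2 value was -0.35 ± 0.23 (adjusted p = 0.349).

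Mut solvent libraries had 226, 215, 331 and 313 CPM of IGFBP2 in series 1-1, 1-2, 65-1 and 65-2. At 6 h these were 221, 256, 338 and 312 CPM, at 24 h 168, 213, 228 and 240 CPM, and at 72 h 108, 107, 157 and 202 CPM. Clone 65 was above clone 1 in every treatment state. Only at 72 h did the treated and solvent libraries not overlap, and there IGFBP2 was 1.93-fold lower (log2 -0.95 ± 0.20, adjusted p = 0.00089). The 24 h value was -0.34 ± 0.20 (adjusted p = 0.227), or -0.34 with the series as a block (adjusted p = 0.0281).

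In solvent, IGFBP2 was 5.48-fold higher in mut cells (95% interval 4.03 to 7.44, log2 2.45 ± 0.22, adjusted p = 4.95e-09). The difference grew to 7.28-fold after 6 h, 15.5-fold after 24 h and 29.1-fold after 72 h (log2 4.86 ± 0.38, adjusted p = 1.93e-10), with no overlap between WT and mut libraries in any treatment state. The interaction was 1.50 at 24 h (95% interval 0.79 to 2.21, adjusted p = 0.00699) and 2.41 at 72 h (1.51 to 3.30, adjusted p = 0.0007), and at 6 h 0.41 (-0.22 to 1.04, adjusted p = 0.999). In order of mean, the WT groups at 72, 24 and 6 h and in solvent came first and the mut groups followed. Neighbours in this order overlapped for WT 6 h and solvent, and for all neighbouring mut groups. Beside it, KDR and VWF, the 2 of 4 listed endothelial markers in the table, summed to 5.62 to 15.1 CPM in WT solvent, 21.1 to 27.0 CPM in mut solvent, 2.94 to 3.78 CPM in WT at 72 h and 13.1 to 20.9 CPM in mut at 72 h. Of these, VWF did not exceed 0.14 CPM in any library, and the part of KDR in the IGFBP2 result was not tested.

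IGFBP7 rose with TGFβ1 to overlapping levels in both genotypes. WT libraries had 85.7, 85.2, 116 and 105 CPM in solvent and 264, 278, 344 and 264 CPM at 72 h in series 2-1, 2-2, 27-1 and 27-2. Mut libraries had 98.9, 113, 103 and 93.6 CPM in solvent and 309, 337, 261 and 300 CPM at 72 h in series 1-1, 1-2, 65-1 and 65-2. The solvent and 72 h libraries were far apart in each genotype, and the WT and mut libraries of each treatment state overlapped. The rise at 72 h was 2.94-fold in WT (log2 1.56 ± 0.13, adjusted p = 3.12e-10) and 2.95-fold in mut cells (log2 1.56 ± 0.13, adjusted p = 2.06e-09), and at 24 h it was 1.91-fold and 1.88-fold. The interaction at 72 h was close to 0, and its 95% interval of -0.38 to 0.39 holds differences of up to 1.31-fold. Between mut and WT the 95% intervals of the log2 difference lay within -0.22 and 0.41 over the 4 treatment states.

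At 6 h the value of IGFBP7 was 0.28 in WT (adjusted p = 0.16) and 0.35 in mut cells (adjusted p = 0.106). With the series as a block these were 0.29 (adjusted p = 0.0167) and 0.35 (adjusted p = 0.00734). The mut value was called in 4 of 19 alternatives, among them DESeq2 (0.41, adjusted p = 0.0441) and the groups alone (0.35, adjusted p = 0.0446). The mut libraries at 6 h and in solvent did not overlap. The fibroblast list, of which 7 of 8 genes were in the table, moved as well. It summed to 15.3 to 22.1 CPM in WT solvent and 39.0 to 60.1 CPM in WT at 72 h, and to 15.3 to 25.0 CPM in mut solvent and 43.1 to 53.2 CPM in mut at 72 h. COL1A1 and DCN carried most of this sum, and its part in the IGFBP7 result was not tested.

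IGFBP6, which prefers IGF2 over IGF1, was lower in mut cells in solvent and rose in them by 72 h. WT solvent libraries had 56.4, 52.5, 32.8 and 55.7 CPM, and mut solvent libraries had 29.9, 27.9, 34.2 and 26.7 CPM. WT 27-1 fell within the mut range, and the other 3 WT libraries were above it. The difference was 1.63-fold (log2 -0.70 ± 0.20, adjusted p = 0.0194). It was lost on leaving out WT solvent 2-1 (-0.62, adjusted p = 0.0657), WT solvent 27-2 (-0.63, adjusted p = 0.0654) or mut solvent 65-2 (-0.65, adjusted p = 0.0667), and without series 27-2 as a whole adjusted p was 0.0595.

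By 72 h the mut libraries had 47.1, 47.7, 47.6 and 53.4 CPM of IGFBP6, all above their solvent libraries, a 1.66-fold rise (log2 0.73 ± 0.20, adjusted p = 0.00813). WT libraries at 72 h had 64.2, 72.4, 45.1 and 55.7 CPM and overlapped with solvent (log2 0.28 ± 0.19, adjusted p = 0.215), and with the series as a block the WT value was 0.27 (adjusted p = 0.013). The interaction was 0.45 (95% interval -0.12 to 1.01, adjusted p = 0.312), or 0.46 with the block (adjusted p = 0.0134). At 24 h mut cells had 35.0 to 40.4 CPM and WT cells 34.5 to 70.3 CPM, and the difference of -0.52 was called (adjusted p = 0.0354) but was lost in 8 of 18 alternatives. These include leaving out WT 24 h 2-2 (-0.39, adjusted p = 0.14), WT 24 h 27-2 (-0.41, adjusted p = 0.127) and, singly, mut 24 h 1-2, 65-1 or 65-2 (adjusted p of 0.0642 to 0.0769). Without series 27-2 as a whole the difference at 24 h was -0.41 (adjusted p = 0.132). At 6 h the difference was -0.53 (adjusted p = 0.0565), or -0.54 with the replication number as a block (adjusted p = 0.0349), and -0.70 without WT 6 h 27-1 (adjusted p = 0.0122). It was called in 5 of 18 alternatives, edgeR (adjusted p = 0.0336), DESeq2 (adjusted p = 0.0146) and clone sums (adjusted p = 0.0399) among them. The mut value at 24 h against solvent was 0.32 (adjusted p = 0.268), or 0.32 with the series block (adjusted p = 0.0132). Of the leukocyte list, 3 of 4 genes were in the table, and their sum was 8.93 to 14.3 CPM in WT solvent and 5.93 to 7.48 CPM in mut solvent, and 16.6 to 24.5 and 9.12 to 11.4 CPM at 72 h. Nearly all of this sum was CD68, since PTPRC and CD3E did not exceed 0.0498 and 0.0457 CPM, and its part in the IGFBP6 result was not tested.

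IGFBP3, the main carrier of IGFs in the circulation, was scarce and rose with TGFβ1 in both genotypes. WT solvent libraries had 0.946, 0.554, 0.713 and 0.502 CPM, and at 72 h 3.22, 1.37, 4.77 and 3.32 CPM. Mut solvent libraries had 0.466, 0.988, 0.421 and 1.01 CPM, and at 72 h 2.35, 2.13, 1.38 and 2.19 CPM. Treated and solvent libraries did not overlap at 72 h in either genotype. The rise was 4.32-fold in WT (95% interval 2.22 to 8.38, log2 2.11 ± 0.47, adjusted p = 0.000426) and 2.97-fold in mut cells (1.53 to 5.78, log2 1.57 ± 0.47, adjusted p = 0.0145).

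The mut call of IGFBP3 at 72 h was lost without mut solvent 1-1 (1.41, adjusted p = 0.0513) or mut solvent 65-1 (1.36, adjusted p = 0.0528). At 24 h the mut libraries had 1.49 to 3.14 CPM, all above solvent (log2 1.69 ± 0.47, adjusted p = 0.00941). Both mut calls were lost when the replications of each clone were summed. The values were then 1.583 at 24 h (adjusted p = 0.0588) and 1.485 at 72 h (adjusted p = 0.0702). The WT libraries at 24 h had 0.722 to 2.47 CPM and overlapped with solvent (log2 1.18 ± 0.50, adjusted p = 0.04996), and this call was lost in 11 of 19 alternatives, among them leaving out, singly, any WT solvent library or WT 24 h 2-1, 27-1 or 27-2, with adjusted p of 0.0586 to 0.167. Without series 27-2 as a whole the WT value at 24 h was 0.97 (adjusted p = 0.173). In WT cells at 6 h the value was 1.09 (adjusted p = 0.144), or 1.10 with the series block (adjusted p = 0.0456). The rise was called in 4 of 19 alternatives, among them edgeR (1.26, adjusted p = 0.0306) and DESeq2 (1.27, adjusted p = 0.0122). The WT libraries at 6 h and in solvent did not overlap. Between mut and WT no difference in IGFBP3 was called, and at 72 h the log2 difference was -0.54 (95% interval -1.21 to 0.12, adjusted p = 0.194), or -0.89 without WT 72 h 2-2 (adjusted p = 0.0176). The interaction at 72 h had a 95% interval of -1.89 to 0.82.

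IGFBP4, an inhibitory binding protein that is cut by the protease PAPPA, was low in all libraries and very low in WT series 27-2. In WT solvent it had 7.50, 7.33, 4.68 and 0.351 CPM in series 2-1, 2-2, 27-1 and 27-2, and series 27-2 stayed at 0.592, 0.553 and 1.01 CPM at 6, 24 and 72 h. Mut solvent libraries had 6.58, 7.32, 9.81 and 9.88 CPM, and mut libraries at 72 h had 3.90, 3.56, 5.79 and 6.55 CPM. The other 12 WT libraries thus lay much closer to the mut libraries than series 27-2 did. No comparison was called. The log2 difference of mut from WT was 1.69 at 6 h (adjusted p = 0.0537) and 1.63 at 24 h (adjusted p = 0.0533, or 1.50 and 0.0477 with the replication number as a block). Without series 27-2 it was 0.93 at 6 h (adjusted p = 0.00275) and 0.90 at 24 h (adjusted p = 0.00303).

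Every mut library at 72 h was below every mut solvent library for IGFBP4, with a log2 value of -0.82 ± 0.54 (adjusted p = 0.282), or -0.79 with the series block (adjusted p = 5.47e-05). Without series 27-2, which also sets the shared spread, the same change of -0.82 had an adjusted p of 0.00203. In WT cells at 24 h the value was -0.37 (adjusted p = 0.717), or -0.57 with the series block (adjusted p = 0.00721) and -0.61 without series 27-2 (adjusted p = 0.0405).

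IGFBP5, the member most retained in the extracellular matrix, was at or near the floor. It had 0 to 27 counts per library, and 16 of 32 libraries were above 3 counts, 5 of 16 in WT and 11 of 16 in mut cells. Mut solvent libraries had 0.317, 0.607, 0.0421 and 0.342 CPM, and WT solvent libraries had 0.0676, 0, 0.126 and 0.125 CPM. No library of another group exceeded 0.234 CPM. No comparison was called and no fold is given at these counts. With the series as a block, the decrease in mut cells was called at 24 h (adjusted p = 0.0297) and at 72 h (adjusted p = 0.0217), against 0.0898 and 0.127 without the block. Without mut solvent 65-1, the lowest library of its group, the decrease in mut cells at 24 h (adjusted p = 0.00919) and 72 h (adjusted p = 0.012) was called. So was the difference between mut and WT in solvent (adjusted p = 0.0183, against 0.156 with it). The filter asks for a count of about 10. WT libraries had at most 6 counts, and mut libraries at most 4 at 24 h and 6 at 72 h. IGFBP5 thus passed the filter only through mut libraries in solvent and at 6 h. That favours calls of a lower level elsewhere, so these calls give no support for a change of IGFBP5.

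**Figure D3:**
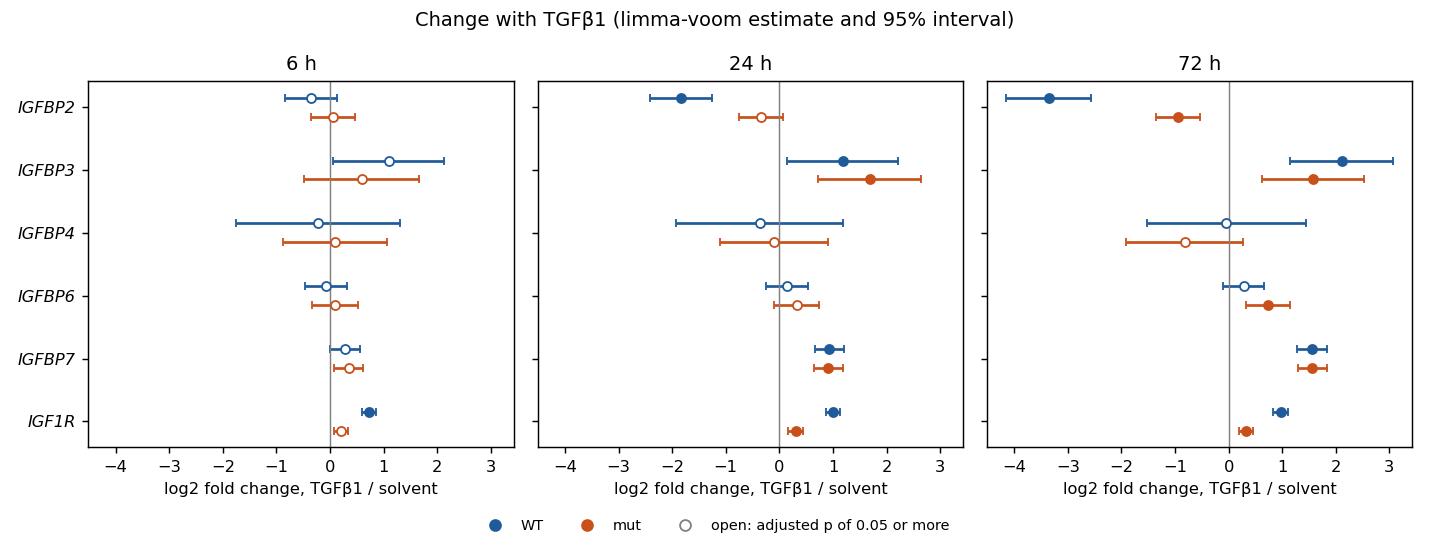
Log2 fold change of TGFβ1 over solvent at 6, 24 and 72 h (horizontal axis) for 6 genes (vertical axis), WT in blue and mut in orange, with bars for the 95% interval of the limma-voom estimate and open symbols where the adjusted p was 0.05 or more. IGFBP2 and IGF1R show separate WT and mut intervals at 24 and 72 h, and the IGFBP7 intervals of the genotypes nearly coincide. IGFBP5 is left out because it was near the floor.

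Levels can be compared between these genes only per length, as CPM per kilobase of merged exons, which ranged from 1.35 kb for IGFBP6 to 6.47 kb for IGFBP5 among the binding proteins. Merged exons are those of all annotated transcripts of a gene. Which of these transcripts the cells made was not determined, so the shares depend on this choice of length. On this scale IGFBP7 held 50.6 ± 8.06% (SD, n = 4) of the binding protein transcripts in WT solvent, IGFBP6 36.5 ± 7.85% and IGFBP2 10.6 ± 3.06%. In mut solvent IGFBP2 held 41.7 ± 5.78%, IGFBP7 39.2 ± 5.30% and IGFBP6 16.2 ± 1.48%. The composition thus differed between the genotypes before treatment mainly in IGFBP2 and IGFBP6. At 72 h IGFBP7 held 75.6 ± 4.95% in WT and 69.3 ± 5.02% in mut cells, whereas IGFBP2 held 0.545 ± 0.265% in WT and 13.4 ± 4.02% in mut cells. IGFBP3, IGFBP4 and IGFBP5 were minor throughout, with IGFBP4 at 2.26 ± 1.51% in WT solvent and 2.78 ± 0.359% in mut solvent. The summed level of the 6 genes was 100.4 ± 2.16 CPM per kb in WT solvent and 136.1 ± 12.9 CPM per kb in mut solvent, and at 72 h it was 196.5 ± 15.5 and 225.7 ± 15.5 CPM per kb.

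**Figure D4:**
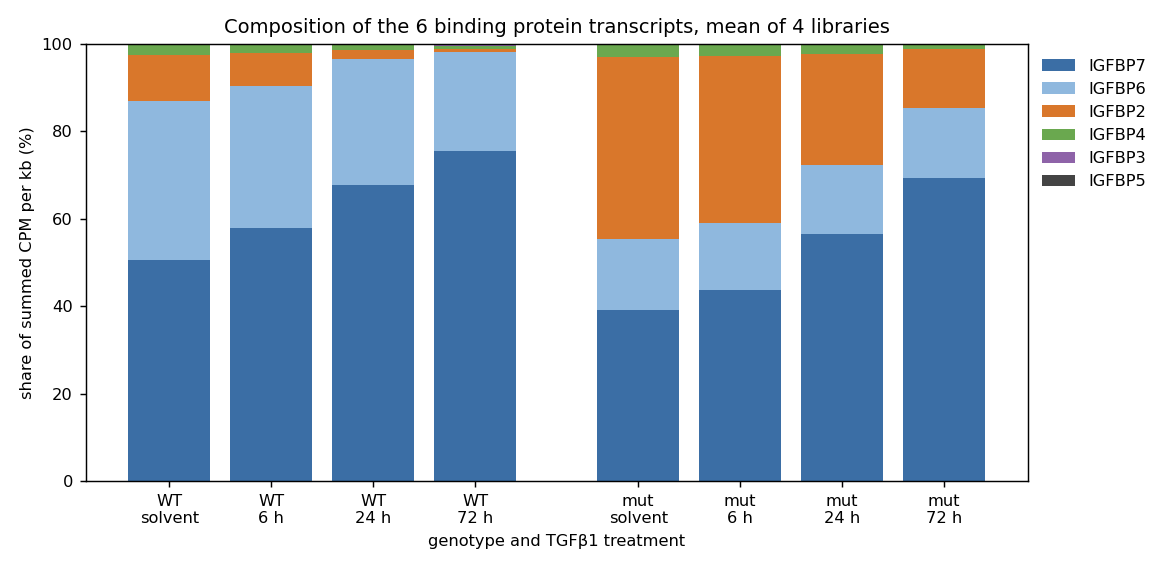
Share of each of the 6 binding protein genes in their summed CPM per kb of exon (vertical axis, percent), as the mean of 4 libraries, for each genotype and treatment (horizontal axis). IGFBP2 takes 41.7% in mut solvent against 10.6% in WT solvent, and IGFBP7 takes the larger part of both genotypes at 72 h. The shares of IGFBP3 and IGFBP5 are too small to be visible.

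Of the ligands, IGF1 was hardly seen. IGF1 had 0 to 4 counts per library and did not pass the filter, and IGF2 and INS were not analysed here. Of the other receptors, the insulin receptor INSR and the IGF2 scavenger IGF2R were tested at all times and not called with TGFβ1 in either genotype, and neither was INSRR. Between mut and WT, 1 of these 3 was called at 24 h and 1 at 72 h, each lower in mut cells. That is 33.3% at each time, against 36.9% and 39.2% of all genes.

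The wider pathway was read from a list of 66 genes, of which 56 were tested. Scaling moved the median of all genes by over 0.1 in WT cells, from -0.18 at 24 h and -0.19 at 72 h with library size to 0.001 and -0.03 with TMM factors, so directions are given under both. In WT cells at 72 h, 30 of the 56 were called (53.6%), 10 higher and 20 lower, and with TMM factors 31 were called, 18 higher and 13 lower. In mut cells at 72 h it was 13 (23.2%), 7 higher and 6 lower, and with TMM factors 13, 9 higher and 4 lower. Both counts are close to the share of all genes called.

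Genes whose proteins cut the binding proteins, or inhibit those that do, were called in 3 of 7 cases at 72 h in each genotype, all higher and also called with TMM factors, where 52.2% of all genes were called in WT and 24.1% in mut cells. The serine protease HTRA1 rose in WT from 174.6 ± 35.4 to 326.8 ± 77.1 CPM (SD, n = 4, adjusted p = 0.000102) and in mut cells from 119.9 ± 12.8 to 219 ± 24.3 CPM (adjusted p = 0.000556). ADAM12, a metalloprotease that cuts IGFBP3 and IGFBP5, rose in WT from 7.01 ± 2.75 to 14.3 ± 3.51 CPM (adjusted p = 0.00109) and in mut cells from 4.90 ± 0.849 to 9.89 ± 2.17 CPM (adjusted p = 0.0098, or 0.0537 without series 1-2). The other gene called was STC1 in WT (log2 0.57, adjusted p = 0.0348) and ADAM9 in mut cells (log2 0.41, adjusted p = 2.69e-05). The STC1 call was lost in 7 of 19 alternatives (adjusted p of 0.0638 to 0.143), among them leaving out, singly, WT solvent 2-2, 27-1 or 27-2 or WT 72 h 2-2 or 27-1.

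STC1 and STC2 encode stanniocalcins, which inhibit the PAPPA proteases. In solvent, STC1 was lower in mut than in WT cells, at 3.16 ± 0.407 against 12.2 ± 3.71 CPM (log2 -1.91, adjusted p = 0.000174). STC2 was higher there, at 476.6 ± 235.6 against 168.7 ± 48.5 CPM (log2 1.36, adjusted p = 0.0339), a call lost in 8 of 18 alternatives, among them without series 27-2 (adjusted p = 0.0964) or 1-2 (adjusted p = 0.0546). HTRA1 was lower in mut solvent by 0.52 on the log2 scale (adjusted p = 0.0497), and this was lost in 11 of 18 alternatives, TMM factors included (adjusted p = 0.0603). Of all 56 pathway genes, 14 (25.0%) differed between mut and WT in solvent, 7 in each direction, against 12.7% of all genes.

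Of 6 other proteins with an IGFBP domain, 4 were called in WT and 2 in mut cells at 72 h (52.2% and 24.1% of all genes). CCN2, a matricellular protein also known as CTGF, rose in WT from 43.5 ± 25.3 to 132 ± 19.1 CPM (adjusted p = 1.93e-06) and in mut cells from 80.4 ± 12.1 to 153.3 ± 34.0 CPM (adjusted p = 0.0052, or 0.0539 without series 1-2). CCN1 rose in WT by 1.37 (adjusted p = 8.18e-05) and ESM1, a proteoglycan, from 0.177 ± 0.0904 to 2.03 ± 0.895 CPM (adjusted p = 0.000189). CCN3 fell in WT from 3.59 ± 1.02 to 1.06 ± 0.467 CPM (adjusted p = 1.73e-05), and in mut cells it had 2.61 ± 0.273 and 2.70 ± 0.532 CPM. The mut gene besides CCN2 was KAZALD1, with a log2 value of -0.77 (adjusted p = 0.0111), a call lost in 6 of 19 alternatives (adjusted p of 0.0571 to 0.0945), among them edgeR, DESeq2 and leaving out mut 72 h 1-1 or 1-2.

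Among adaptors, GRB10, which binds the activated receptor and dampens its signal, rose at 72 h in WT from 59.2 ± 4.70 to 132 ± 22.8 CPM (adjusted p = 2.6e-07) and in mut cells from 83.5 ± 16.5 to 127.7 ± 25.9 CPM (adjusted p = 0.002). IRS1, a main docking substrate of IGF1R, fell in WT from 24.5 ± 7.18 to 11.3 ± 3.83 CPM (adjusted p = 0.00346). In mut solvent IRS1 already had 8.99 ± 1.82 CPM, lower than in WT solvent (log2 -1.40, adjusted p = 0.00394), and it had 9.77 ± 3.89 CPM at 72 h. GRB7 and GRB14 fell in WT by 0.73 (adjusted p = 0.00395) and 0.70 (adjusted p = 0.00024) on the log2 scale. Of the 10 adaptors tested, 60.0% were called in WT and 30.0% in mut cells at 72 h, against 52.2% and 24.1% of all genes. In WT 1 rose and 5 fell, and in mut cells 1 rose and 2 fell. With TMM factors the numbers were 2 and 4 in WT and 1 and 0 in mut cells, where IRS2 and SHC1 were no longer called (adjusted p = 0.104 and 0.127). Over all alternatives IRS2 was lost in 8 of 19, among them leaving out mut solvent 65-1 or 65-2 or mut 72 h 1-1 or 65-2, and SHC1 in 5 of 19, among them leaving out mut solvent 65-2.

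In the PI3K and AKT branch, the regulatory subunit gene PIK3R3 fell at 72 h in WT from 65.4 ± 9.55 to 32.2 ± 3.73 CPM (adjusted p = 1.33e-08) and in mut cells from 74.3 ± 7.75 to 46.9 ± 2.34 CPM (adjusted p = 1.92e-05). PIK3R1 and PIK3R2 fell in WT by 0.56 and 0.53 on the log2 scale (adjusted p = 0.000101 and 6.75e-06), and INPPL1, a lipid phosphatase gene, rose in mut cells by 0.25 (adjusted p = 0.0225), a call lost in 5 of 19 alternatives (adjusted p of 0.053 to 0.0942), among them leaving out mut solvent 1-2 or 65-2 or mut 72 h 65-2. Of 14 genes, 3 rose and 7 fell in WT and 2 rose and 1 fell in mut cells, or 6 and 5 in WT and 3 and 1 in mut cells with TMM factors. With library size 71.4% were called in WT and 21.4% in mut cells, against 52.2% and 24.1% of all genes. No test of this branch as a list was made.

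Downstream of AKT, 7 of 14 genes fell in WT at 72 h and 0 rose (50.0% called, against 52.2% of all genes). With TMM factors 3 fell and 2 rose, so this direction rests on the scaling. The 3 that fell under both were FOXO1, RPTOR and FOXO3. FOXO1, a transcription factor that AKT keeps out of the nucleus, fell from 63.4 ± 9.93 to 35.5 ± 6.85 CPM (adjusted p = 1.66e-05), and in mut cells it had 73.5 ± 2.38 and 65.2 ± 10.8 CPM (adjusted p = 0.328). RICTOR fell in WT by 0.31 (adjusted p = 0.0212) and was not called with TMM factors (adjusted p = 0.272) or in 7 other of 19 alternatives, among them leaving out WT solvent 2-2 or 27-1 or WT 72 h 2-2 or 27-1. In mut cells FOXO3 and FOXO4 fell by 0.52 and 0.54 on the log2 scale (adjusted p = 6.88e-06 and 0.000348).

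The response at 72 h differed between mut and WT for 5 of the 56 genes (8.9%), all with a positive interaction, which is a smaller share than the 12.3% of all genes. These were CCN3 (1.88, adjusted p = 0.00238), GRB14 (0.73, adjusted p = 0.0125), FOXO1 (0.67, adjusted p = 0.0252), PIK3R2 (0.39, adjusted p = 0.0311) and RPTOR (0.34, adjusted p = 0.0226). With TMM factors CCN3, GRB14 and FOXO1 were called (adjusted p = 0.00353, 0.0355 and 0.0483) and 5 genes in all, 3 with a positive and 2 with a negative sign. Without series 27-2, 11 of the 56 were called, 6 with a positive and 5 with a negative sign, the 5 genes named above among them. CCN2 was then called with a negative sign (-1.11, adjusted p = 0.02). FOXO1 was lost in 6 of 27 alternatives (adjusted p of 0.0558 to 0.0686). With the series as a block 19 of the 56 genes were called, 14 with a positive and 5 with a negative sign. The share of all genes called with the block or without series 27-2 is not reported here. ADAM9, RICTOR and RPTOR each overlap another gene of the table, and reads in the overlaps cannot be assigned without strand.

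Genes with the profile most like each of these across the 32 libraries were looked up among 9644 genes of at least 10 CPM, as Pearson's r of log2 abundance, which is a description over libraries that share clones and treatments. For IGFBP2 they were RIPOR2 (r = 0.97), ERRFI1 (0.97), a feedback inhibitor of EGF receptor signalling, and SYT12 (0.969). RIPOR2 had a mean of 12 CPM in WT solvent and 95.2 CPM in mut solvent, and fell to 0.604 and 34.0 CPM at 72 h. For IGF1R they were the transcription factor gene SOX4 (0.971) and MLXIP (0.967). SOX4 had 48.5 CPM in WT solvent and 167 CPM in WT at 72 h, against 39.4 and 70.3 CPM in mut cells. IGFBP7 was most like CTSZ (0.927), FAP (0.913) and CCDC80 (0.911), and the values for IGFBP3, IGFBP4, IGFBP5 and IGFBP6 were led by FAP (0.787), KRTCAP3 (0.915), RSPRY1 (0.781) and BRD3OS (0.897). IGFBP2 and IGF1R ran opposite to each other, with r of -0.86.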

How the data were processed

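RNA-seq libraries were made by the authors with the TruSeq RNA Sample Prep Kit v2, trimmed with Trimmomatic and mapped to GRCh38 (Ensembl) with STAR, which also gave the counts, and versions were not given in the sources used here. The deposited values are raw read counts per gene, without normalization, and every library column was used (0 unused). Identifiers were matched to GENCODE 44, which named 17763 of 17788 genes. The 7 genes and the pathway and marker lists were chosen with earlier results of these data known. Named pathway genes were at most 4 called genes per role and comparison, ordered by absolute fold change, and some genes that this rule would name are not reported here.

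Genes were kept by filterByExpr (edgeR 4.0.16) at a minimum count of 10 and a minimum total of 15, scaled by library size and fitted with voom and limma 3.58.1 in R 4.3.3, model ~0 + condition over all 32 libraries, as in the study's methods, with Benjamini-Hochberg adjustment over 14865 genes in each of 13 comparisons. The 2 clones of a genotype were each sampled in 2 replications, so p-values measure the spread between libraries of these clones. Libraries of the same series deviated together (mean r 0.346, lowest 0.0225, over 48 pairs, against -0.11 for other series), and the pairing comes from the clone and replication labels. Within groups, each pair of libraries differed beyond sampling noise (chi-square divided by its degrees of freedom at least 11.6), so none was treated as a repeat sequencing of another. Each library counted as 1 sample in the fit. This does not make the 2 replications of a clone independent samples of a genotype. Alternatives were TMM factors, the edgeR quasi-likelihood test, DESeq2 1.42.0, all genes unfiltered, a higher filter (mean count 50), the groups alone, clone sums, replicate blocks, leaving out single libraries and a minimum absolute log2 fold change of 1. Leaving out series 27-2 or 1-2, and TMM with the series block, were chosen after seeing the data. The fits were tested on simulated data. For the profile likeness, 1 CPM was added before taking log2. Promoter windows came from RefSeq.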

Additional observations from a re-analysis of the deposited data

Results flagged for a closer look

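Of 56 groups of 4 libraries checked over the 7 genes, 5 held a library far from the other 3, and chance gives about 1 in 20. IGFBP4 in WT at 24 h had 0.553 CPM in series 27-2 against 3.95 to 4.34 CPM in the others. IGFBP5 in WT at 72 h had 0.0809 CPM in 27-2 against 0 in the others, and in mut at 24 h it had 0.0 CPM in 65-1 against 0.0876 to 0.0936 CPM. IGFBP6 in WT solvent had 32.8 CPM in 27-1 against 52.5 to 56.4 CPM, and in mut at 72 h it had 53.4 CPM in 65-2 against 47.1 to 47.7 CPM. Both IGFBP5 values are of a few counts.

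The change with TGFβ1 differed between mut and WT, by the limma-voom interaction test, for IGFBP2 at 24 h (1.50 log2) and 72 h (2.41 log2). For IGF1R it differed at 6 h (-0.52 log2), 24 h (-0.69 log2) and 72 h (-0.65 log2). The order of every series follows these signs, as all 4 mut series changed less than all 4 WT series.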

How the results depend on the processing

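Of 91 log2 fold changes of the 7 genes, 31 were called, and none that was called changed sign under any alternative. Over all alternatives 1753 values kept their side of the threshold, 52 gained a call and 40 lost one. The counts of the 7 genes called changed by more than 1.5 times as follows, and smaller changes are given for the blocks. The edgeR quasi-likelihood test called 2 in WT at 6 h (1 in the limma-voom fit) and 1 in mut at 6 h (0), and DESeq2 called 2 in both. TMM factors and the groups alone each called 1 in mut at 6 h. With the series as a replicate block 3 were called in WT at 6 h, 2 in mut at 6 h and 6 in mut at 24 h (3 without), and with TMM factors and the block 3, 2 and 5. The block also gave 5 in WT at 24 h and 5 at 72 h (4 each without), 7 in mut at 72 h (5) and 3 for the interaction at 72 h (2), and the replication number as a block gave 3 between mut and WT at 6 h (2) and 4 at 24 h (3). The pairing by block changed 14 of 91 calls, all gained and given beside each gene, and no other call. The share of all genes called with the block is not reported here. Without series 1-2 the counts were 1 in mut at 6 h, 1 between mut and WT in solvent (2 with it) and 0 for the interaction at 6 h (1 with it), and without series 27-2 the last pair was 1 and 0. The groups alone and clone sums gave 0 for the interaction at 6 h, and clone sums gave 1 for that at 24 h (2), where IGFBP2 had an adjusted p of 0.067. Leaving out single libraries gave 0 to 1 for mut at 6 h, 1 to 3 for mut against WT in solvent (3 without mut solvent 65-1) and 0 to 1 for the interaction at 6 h. Requiring a log2 fold change of at least 1 in size gave 0 in WT at 6 h, 2 at 24 h, 1 in mut at 24 h, 2 at 72 h, 1 in each comparison of mut and WT, and 0, 1 and 1 for the interactions at 6, 24 and 72 h. For IGFBP2 in WT at 72 h the alternatives ranged from -3.81 to -3.14, for its interaction from 2.19 to 2.86, and for IGF1R in WT at 72 h from 0.95 to 1.15 and its interaction from -0.75 to -0.58. Shares without division by length put IGFBP2 at 24.5% in WT solvent and 65.2% in mut solvent, and IGFBP6 at 24.4% and 7.26%. Of the shares in solvent and at 72 h, 19 moved by more than their SD without this division and 5 did not. IGFBP5 had 0 to 27 counts per library and IGFBP3 20 to 217, and the cause of the lost calls was not tested.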
